A study of Mus musculus with 8 samples.

Results

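The interferon-stimulated genes described here are 38 genes chosen by name from the 55335 genes of the table, with Ensembl identifiers matched to mouse symbols, and all 38 were found. They were compared in RAW264.7 cells, a mouse macrophage-like line of tumour origin, kept for 3 days either with TABS, the Trio-Active bone scaffold (4 libraries, replicates 5 to 8), or with HA/Mg, a scaffold of hydroxyapatite doped with magnesium ions (4 libraries, replicates 5 to 8). No other genotype, agent or scaffold-free culture enters, and the sources used here do not give the components of TABS, so each difference is between these scaffolds only. Groups follow the sample titles. The library names give H for TABS and L for HA/Mg, and if the groups had been exchanged every direction below would turn round. Nothing says that the libraries of a group are separate cultures, so p-values measure only the spread between libraries, which may be technical. On the first principal component of the tested genes (40.2% of the variance), HA/Mg replicate 6 (-2.62) stood nearer the TABS libraries (-16.5 to -5.72) than the other HA/Mg libraries (12.7 to 16.4), so values without it are given.

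Type I interferons bind a receptor whose kinases activate STAT proteins. Together with IRF9 these enter the nucleus and switch on genes that carry the interferon-stimulated response element. The products sense foreign nucleic acid, block viral RNA and protein production, amplify the signal through IRF7 and, through USP18, shut it down. Macrophages keep part of this set active without infection, through low constitutive signalling.

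Cells kept with TABS had more RNA of a subset of these genes. Of the 28 members that reached 1 FPKM (fragments per kilobase of transcript, scaled to the library's mapped fragments) in at least 4 of the 8 libraries, 12 rose, 0 fell and 16 did not pass at an adjusted p under 0.05 in limma's linear model on log2(FPKM + 1), whereas 5.07% of all 10161 genes tested were higher with TABS, 13.1% lower and 18.1% changed in either direction. At an unadjusted p under 0.05, 15 members were higher and 0 lower, and the share of all genes at that threshold was not counted. The 12 were Irf7, Dhx58, Zbp1, Mx2, Oas1a, Oas1g, Oas3, Isg15, Usp18, Bst2, Xaf1 and Cxcl10, and their mean FPKM with TABS was 1.19 to 1.77 times that with HA/Mg. The median log2 change (TABS minus HA/Mg) was 0.23 over the 28 members and -0.04 over all genes tested. All 4 TABS libraries lay above all 4 HA/Mg libraries for 12 of the 28 members, against 8.05% of genes tested. Members were chosen with earlier results of these data known, so these shares of all genes are not an independent contrast. In whole-culture RNA, fewer cells making a transcript and less of it per cell cannot be told apart.

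**Figure D1:**
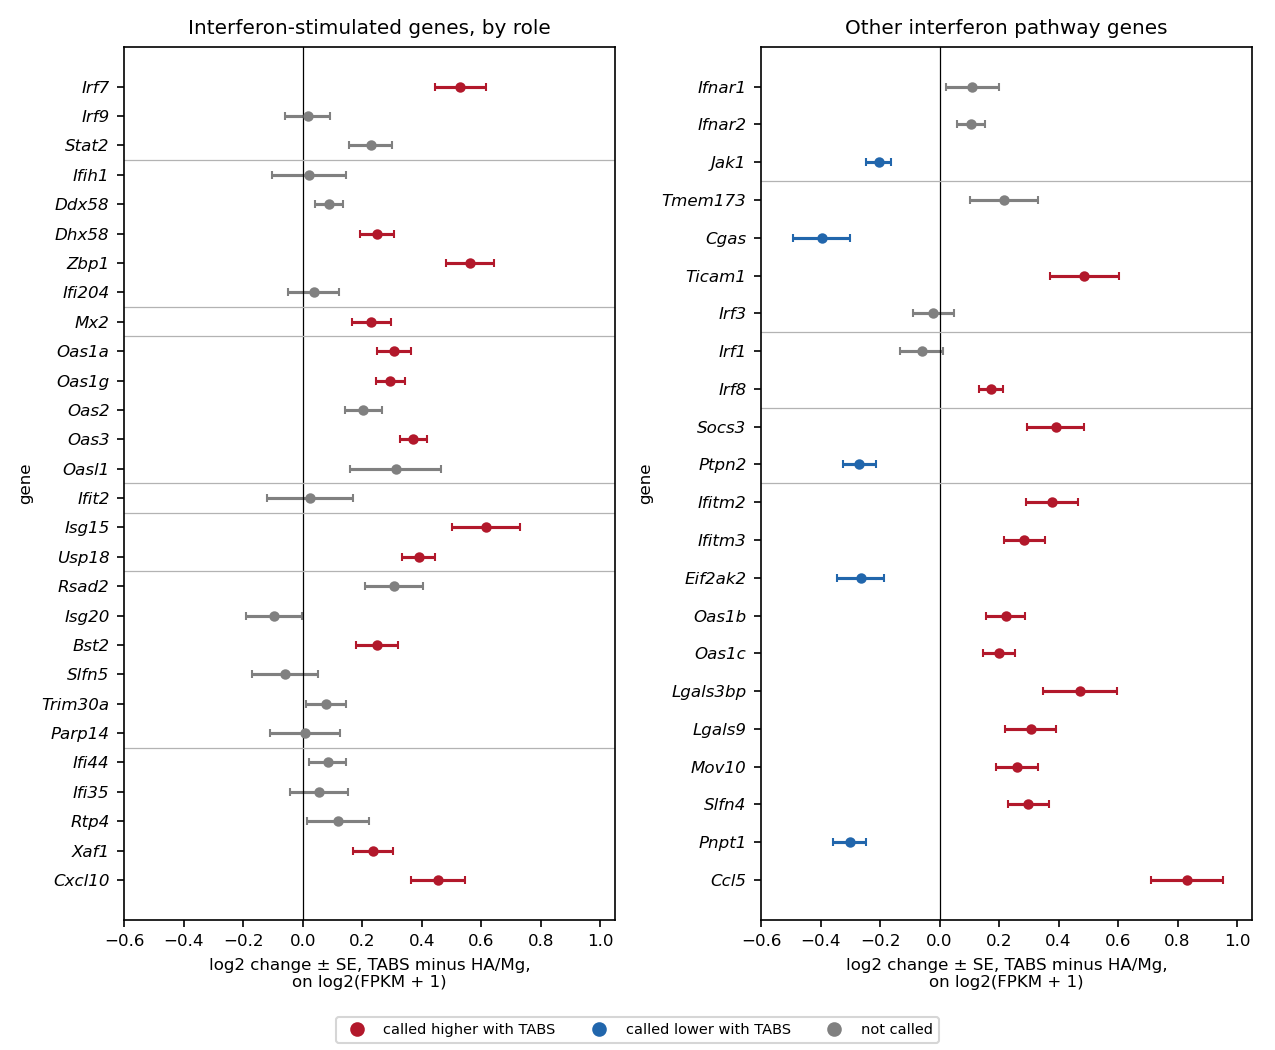
Log2 change (TABS minus HA/Mg, computed on log2(FPKM + 1)) with its standard error for the 28 members tested, by role (left), and for a selection of other genes of the interferon pathway (right). Red marks genes called higher with TABS, blue those called lower and grey those not called; 12 members are red and 0 blue.

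To show the element through which these genes are known to be controlled, 250 bases before the start of 6 called members are printed, from RefSeq on GRCm38.p6, whose starts can differ by some bases from the gene ends given below. They come from the 8 called members with a matched RefSeq promoter, so Zbp1, Usp18, Dhx58 and Mx2 were not searched. Of these 8, they are the 4 with the largest log2 change that hold the response element motif, and the 2 that do not. The motif is written as GAAA, any 2 bases and GAAA, and was searched on both strands. Capitals mark the motif, whose matches may overlap, and each sequence runs from 5′ to 3′ on the strand of its gene, so that its last base lies next to the start. Isg15 (chr4:156200819-156201068, minus strand) holds 3 overlapping matches that begin 78, 72 and 66 bases before the start:
Isg15: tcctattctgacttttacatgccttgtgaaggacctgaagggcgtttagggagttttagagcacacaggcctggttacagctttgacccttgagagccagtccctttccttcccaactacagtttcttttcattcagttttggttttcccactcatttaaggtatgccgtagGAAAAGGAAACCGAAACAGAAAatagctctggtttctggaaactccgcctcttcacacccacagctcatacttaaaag
Cxcl10 (chr5:92348890-92349139, minus strand) holds 1 match:
Cxcl10: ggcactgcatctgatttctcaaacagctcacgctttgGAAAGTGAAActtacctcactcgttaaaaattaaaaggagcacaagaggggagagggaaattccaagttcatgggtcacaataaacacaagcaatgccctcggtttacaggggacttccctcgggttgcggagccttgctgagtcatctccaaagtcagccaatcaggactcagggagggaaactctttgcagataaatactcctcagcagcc
Oas3 (chr5:120777660-120777909, minus strand) holds 1 match:
Oas3: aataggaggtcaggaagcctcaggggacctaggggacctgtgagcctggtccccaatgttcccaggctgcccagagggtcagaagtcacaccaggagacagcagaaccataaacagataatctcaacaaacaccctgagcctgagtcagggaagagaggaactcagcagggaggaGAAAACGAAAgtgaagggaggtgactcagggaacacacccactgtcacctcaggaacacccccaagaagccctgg
Oas1a (chr5:120907526-120907775, minus strand) holds 2 overlapping matches close to its start:
Oas1a: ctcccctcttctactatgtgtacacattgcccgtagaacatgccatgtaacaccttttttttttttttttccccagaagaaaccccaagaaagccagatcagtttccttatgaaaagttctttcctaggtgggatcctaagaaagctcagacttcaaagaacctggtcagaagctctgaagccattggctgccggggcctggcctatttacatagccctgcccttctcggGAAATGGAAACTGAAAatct
In Irf7 (chr7:141266425-141266674, minus strand) these letters are not in the window:
Irf7: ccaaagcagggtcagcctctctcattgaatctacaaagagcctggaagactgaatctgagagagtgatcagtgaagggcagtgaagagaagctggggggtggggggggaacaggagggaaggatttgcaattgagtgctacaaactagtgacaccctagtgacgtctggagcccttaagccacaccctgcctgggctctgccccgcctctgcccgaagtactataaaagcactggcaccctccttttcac
Nor are they in the window of Xaf1 (chr11:72301379-72301628, plus strand):
Xaf1: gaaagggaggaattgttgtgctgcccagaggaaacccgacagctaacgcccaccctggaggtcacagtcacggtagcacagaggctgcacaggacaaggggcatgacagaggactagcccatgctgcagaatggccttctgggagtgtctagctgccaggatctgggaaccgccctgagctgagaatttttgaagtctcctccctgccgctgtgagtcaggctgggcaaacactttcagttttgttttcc

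A RefSeq promoter (250 bases before to 50 after the start) was matched for 29 of the 38 members. Of these 29 genes 17 held this motif, against 3.99% of all 27025 genes with a window and 3.70% of the 7425 tested genes with a window. The motif stood in 6 of 8 members that rose (Isg15, Cxcl10, Oas3, Oas1a, Oas1g and Bst2), in 6 of 12 that were tested and not called, and in 5 of 9 too low to test. Ifit1, Ifit3 and Ifit3b each held 2 matches on the opposite strand and were among the lowest members. The motif TTCNNNGAA, the core of the element bound by STAT dimers, stood in 5 of 29 members and in 9.55% of all genes with a window. A match describes letters only, and its bearing on the levels was not tested.

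Basal levels differed widely between members. Mean FPKM over the 8 libraries was highest for Bst2, above 98.5% of all genes tested, followed by Oas1a, Oas1g, Irf7, Oas3 and Oasl1, whereas 10 members did not reach the level needed for a test. These 10 were Mx1, Gbp2, Gbp3, Oasl2, Ifit1, Ifit3, Ifit3b, Herc6, Cmpk2 and Samd9l. Both ends held classical members of the response: tetherin (Bst2) stood at 368 ± 28.4 FPKM with TABS and 309 ± 24.2 FPKM with HA/Mg (± SD over 4 libraries each), and Ifit1, an antiviral protein that binds foreign RNA, at 0.211 ± 0.0763 and 0.0863 ± 0.0348 FPKM.

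**Figure D2:**
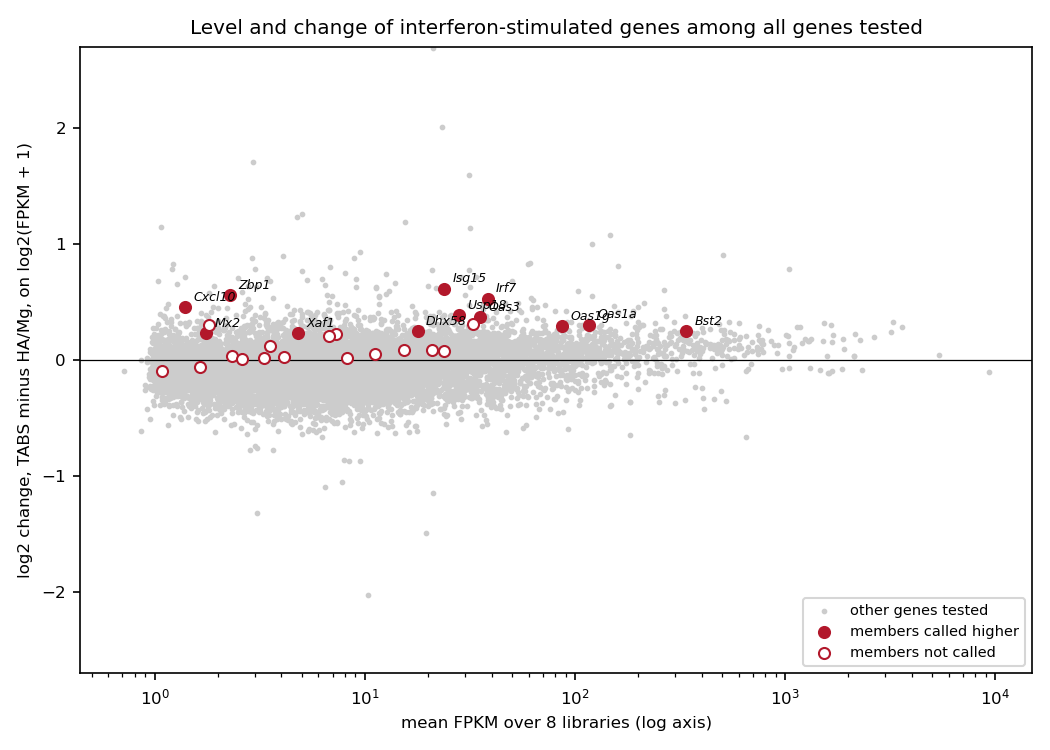
Mean FPKM over the 8 libraries (log axis) against log2 change (TABS minus HA/Mg, on log2(FPKM + 1)) for the 10161 genes tested in grey, with the 28 members tested in red (filled where called higher). Called members run from Cxcl10 (1.39 FPKM) to Bst2 (338 FPKM).

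Among transcription factors, 1 of 3 rose. Irf7, the factor that amplifies type I interferon production, had 41.2, 42.6, 47.4 and 50.7 FPKM in TABS replicates 5 to 8, against 32.4, 35.1, 28.6 and 28.7 FPKM in HA/Mg replicates 5 to 8. The groups did not overlap, and the change was 0.53 ± 0.08 on the log2 scale (SE, adjusted p = 0.00940). On GRCm38 the gene (ENSMUSG00000025498) is on the minus strand of chromosome 7 (141262706 to 141266481). Its exons share positions with Phrf1 on the other strand, and the sources used here do not say whether counting used strand; Phrf1 had a log2 change of -0.13 ± 0.11 (adjusted p = 0.381). Stat2, a subunit of the complex that binds the response element, had 8.32, 7.50, 8.22 and 7.74 FPKM in TABS replicates 5 to 8, against 6.79, 5.92, 6.36 and 7.54 FPKM in HA/Mg replicates 5 to 8. Only TABS replicate 6 and HA/Mg replicate 8 crossed, and the change of 0.23 ± 0.07 did not pass (adjusted p = 0.0547). Irf9, the DNA-binding subunit of the same complex, had 7.21, 8.79, 8.05 and 8.89 FPKM in TABS libraries, against 8.37, 7.37, 8.02 and 8.69 FPKM with HA/Mg. These values overlapped widely (0.02 ± 0.07, adjusted p = 0.893), and the exons share positions with Rnf31.

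Of the 5 nucleic acid sensors 2 rose. Zbp1, which recognises Z-form nucleic acid and can trigger cell death, had 2.61, 2.62, 3.15 and 3.28 FPKM in TABS replicates 5 to 8, against 1.56, 1.88, 1.63 and 1.52 FPKM in HA/Mg replicates 5 to 8. Its mean FPKM with TABS was 1.77 times that with HA/Mg, the widest ratio among tested members, with a log2 change of 0.56 ± 0.08 (adjusted p = 0.00851). Dhx58, a helicase that tunes signalling by the RNA sensors, had 18.3, 20.2, 18.6 and 20.6 FPKM in TABS libraries, against 15.9, 15.02, 16.4 and 17.4 FPKM with HA/Mg (0.25 ± 0.06, adjusted p = 0.0228). The groups did not overlap for either gene, but the call of Dhx58 ended when any 1 of TABS replicates 6 and 8 and HA/Mg replicates 5 and 7 was left out (highest adjusted p = 0.0722). Ddx58, the RNA sensor RIG-I, had 15.9, 16.4, 14.7 and 16.1 FPKM in TABS libraries, against 14.7, 14.8, 15.2 and 14.4 FPKM with HA/Mg, and TABS replicate 7 alone lay inside the HA/Mg range (0.09 ± 0.05, adjusted p = 0.194). Ifih1, the sensor of long double-stranded RNA, had 3.42, 3.87, 2.64 and 3.32 FPKM in TABS libraries, against 3.18, 2.41, 3.70 and 3.77 FPKM with HA/Mg, with wide overlap (0.02 ± 0.12, adjusted p = 0.918). Ifi204, a DNA-binding sensor, had a change of 0.04 ± 0.09 (adjusted p = 0.785), and 16.8% of the 100-base words of its longest transcript occur in transcripts of related genes, so its reads may be shared.

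Active oligoadenylate synthetases (OAS) make the messenger that activates the RNA-cleaving enzyme RNase L. Of the 6 genes of the OAS family, which include OAS-like genes, 3 of 5 tested rose. Oas3 had 41.7, 38.03, 39.4 and 40.8 FPKM in TABS replicates 5 to 8, against 31.5, 31.3, 29.1 and 30.7 FPKM in HA/Mg replicates 5 to 8 (0.37 ± 0.04, adjusted p = 0.00851). Oas1a had 118, 126, 134 and 139 FPKM in TABS libraries, against 106, 109, 101 and 101 FPKM with HA/Mg (0.31 ± 0.06, adjusted p = 0.0129). Oas1g had 88.5, 94.8, 100.2 and 99.9 FPKM in TABS libraries, against 75.9, 82.1, 76.9 and 76.6 FPKM with HA/Mg (0.30 ± 0.05, adjusted p = 0.0112). None of these 3 overlapped between the groups. Oas1a and Oas1g share 40.9% and 38.2% of their 100-base words with each other, so the division of reads between them is uncertain. They lie with Oas2 and Oas3 within 1 cluster on chromosome 5 of GRCm38, from 120730333 (Oas2) to 120907521 (Oas1a), all on the minus strand. Oas2 had 6.72 to 7.61 FPKM with TABS and 5.80 to 6.83 FPKM with HA/Mg (0.20 ± 0.06, adjusted p = 0.0516), so only HA/Mg replicate 6 reached into the TABS range.

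The OAS-like genes lie apart from that cluster, from 114896936 to 114937915 on the same chromosome. Oasl1, which holds down translation of Irf7 in mouse cells, had 38.5, 39.7, 29.5 and 35.9 FPKM in TABS replicates 5 to 8, against 30.3, 20.2, 32.5 and 33.1 FPKM in HA/Mg replicates 5 to 8. TABS replicate 7 lay inside the HA/Mg range and HA/Mg replicate 6 far below the rest, and the change of 0.31 ± 0.15 did not pass (adjusted p = 0.170). Oasl2, a ubiquitin-like relative, was too low for the test at 0.660 to 0.816 FPKM with TABS and 0.425 to 0.573 FPKM with HA/Mg, and it did not overlap between the groups. When all genes above 0 in some library were tested, 9 of the 38 members rose, against 0.960% of all genes, and Oasl2 was the single untested member among them (0.23 ± 0.05, adjusted p = 0.0479). In that fit Dhx58, Mx2, Bst2 and Xaf1 lost their calls (adjusted p from 0.0533 to 0.113).

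Both tested genes of the ISG15 system rose. Isg15, a ubiquitin-like protein joined to other proteins during the response, had 25.96, 29.3, 27.7 and 33.2 FPKM in TABS replicates 5 to 8, against 17.3, 15.7, 18.6 and 23.3 FPKM in HA/Mg replicates 5 to 8. The groups stayed apart although HA/Mg replicate 8 came near. On log2(FPKM + 1) Isg15 had the largest log2 change of any member tested (0.62 ± 0.11, adjusted p = 0.0133). When 0.1 was added in place of 1, Zbp1 (0.78) and Cxcl10 (0.74) had larger changes than Isg15 (0.64). Usp18, the protease that takes ISG15 off proteins and also quenches the interferon receptor, had 31.2, 29.4, 33.3 and 33.8 FPKM in TABS libraries, against 24.6, 25.6, 23.0 and 23.3 FPKM with HA/Mg (0.39 ± 0.06, adjusted p = 0.00859). Herc6, which in mouse attaches ISG15 to proteins, spanned 0.442 to 0.513 FPKM with TABS and 0.435 to 0.487 FPKM with HA/Mg, too low to test. Isg15 (ENSMUSG00000035692) is on the minus strand of chromosome 4 (156199424 to 156200818), and Usp18 (ENSMUSG00000030107) on the plus strand of chromosome 6 (121245906 to 121270917).

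The chemokine Cxcl10, which attracts activated T cells, was low, at 1.91, 2.06, 1.58 and 1.49 FPKM in TABS replicates 5 to 8 against 0.909, 0.824, 1.14 and 1.18 FPKM in HA/Mg replicates 5 to 8. The groups did not overlap (0.46 ± 0.09, adjusted p = 0.0154), and it lost its call when HA/Mg replicate 5 was left out (adjusted p = 0.0546). It reached 1 FPKM in all 4 TABS libraries and 2 of the HA/Mg libraries, and a filter on the mean of all 8 libraries, blind to group, admitted the same 28 members. Its exons share positions with Art3 on the other strand, which lay below the level tested. Xaf1, a protein that promotes cell death, had 4.57, 5.28, 5.57 and 5.61 FPKM in TABS libraries, against 4.47, 4.31, 4.28 and 4.15 FPKM with HA/Mg (0.24 ± 0.07, adjusted p = 0.0417). TABS replicate 5 lay just above the HA/Mg range, and the call ended when any 1 of TABS replicates 6, 7 and 8 and HA/Mg replicates 5, 7 and 8 was left out (highest adjusted p = 0.104).

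**Figure D3:**
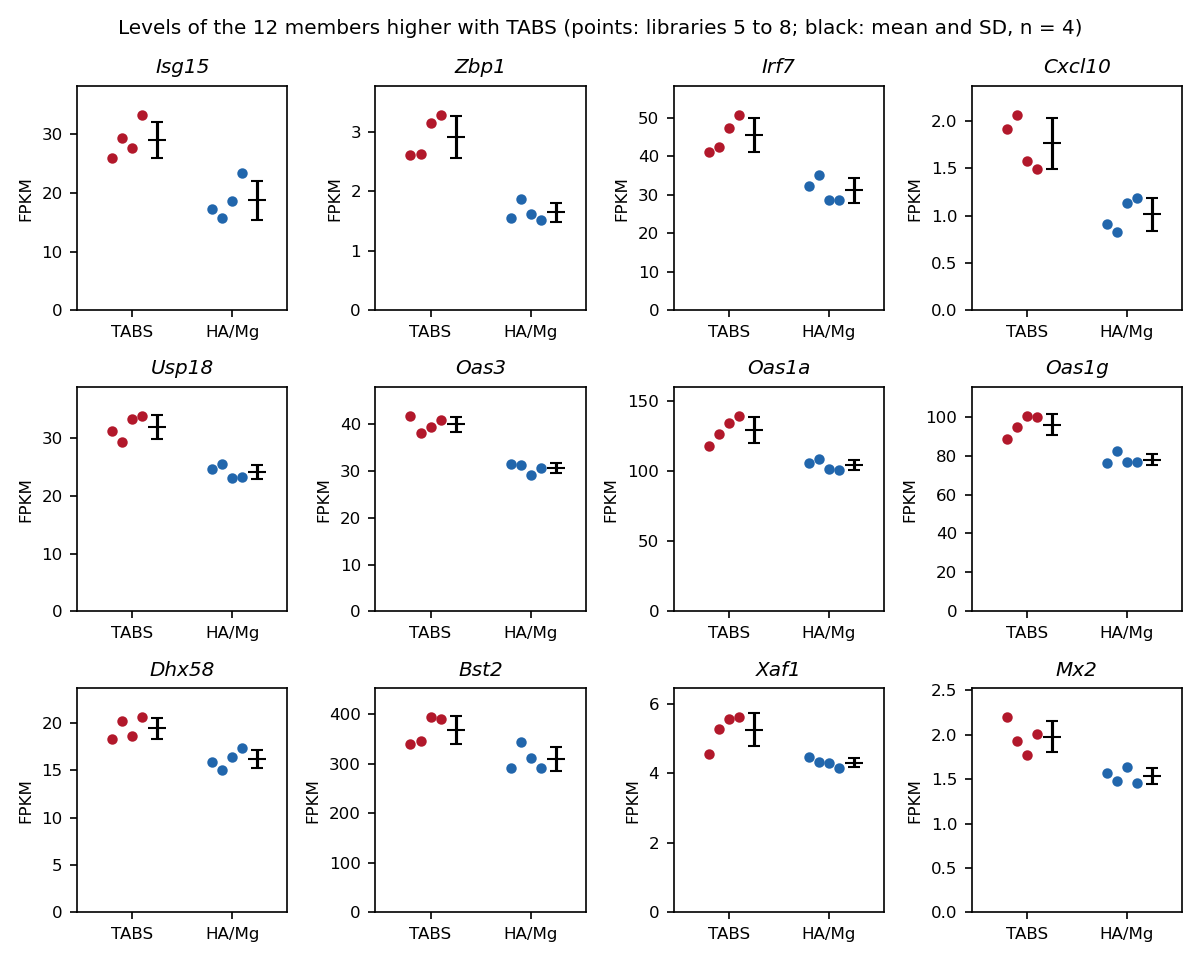
FPKM of the 12 members called higher with TABS, each panel with its own axis from 0. Points are libraries (TABS left, HA/Mg right) and black marks give the mean and SD of 4; the groups overlap for Bst2 alone, where HA/Mg replicate 6 (343 FPKM) lies within the TABS libraries (340 to 393 FPKM).

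Bst2, the membrane tether that holds budding virus at the cell surface, had 340, 346, 393 and 391 FPKM in TABS replicates 5 to 8, against 290, 343, 311 and 292 FPKM in HA/Mg replicates 5 to 8. HA/Mg replicate 6 overlapped TABS, and the call (0.25 ± 0.07, adjusted p = 0.0421) ended when any 1 library other than HA/Mg replicate 6 was left out (highest adjusted p = 0.119). The other 5 tested antiviral effectors did not pass. Rsad2, known as viperin, which makes a chain terminator of viral RNA, had 2.11, 2.47, 1.73 and 2.14 FPKM in TABS libraries, against 1.70, 1.16, 1.56 and 1.64 FPKM with HA/Mg. Its groups did not overlap, but the change of 0.31 ± 0.10 missed the threshold (adjusted p = 0.0553). Isg20, an exonuclease, Slfn5, Trim30a and Parp14 had log2 changes of -0.10, -0.06, 0.08 and 0.01, with adjusted p from 0.419 to 0.971. Cmpk2, the nucleotide kinase beside Rsad2 on chromosome 12, and Samd9l, a restriction factor, were too low to test and overlapped between the groups. Ifi44, Ifi35 and Rtp4 had log2 changes of 0.08, 0.06 and 0.12, with adjusted p from 0.353 to 0.717.

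The IFIT genes, whose products bind foreign RNA and block its translation, stand side by side on chromosome 19 from 34550694 (Ifit2) to 34650009 (Ifit1) and were low. Ifit2 had 3.97, 4.93, 3.13 and 4.52 FPKM in TABS replicates 5 to 8, against 4.54, 2.85, 4.40 and 4.47 FPKM in HA/Mg replicates 5 to 8 (0.02 ± 0.14, adjusted p = 0.923). Its groups overlapped widely, with HA/Mg replicate 6 lowest and TABS replicate 7 next. Ifit1 had 0.188, 0.320, 0.141 and 0.195 FPKM in TABS libraries, against 0.0485, 0.0652, 0.119 and 0.112 FPKM with HA/Mg. Those values did not overlap, yet they correspond to about 8 to 17 fragments with TABS and 3 to 7 with HA/Mg, and with no filter on low values the change did not pass (adjusted p = 0.109). Ifit3 reached at most 0.690 FPKM with TABS and 0.577 FPKM with HA/Mg, and Ifit3b at most 0.0383 and 0.0426 FPKM; 31.7% and 27.4% of their 100-base words are shared between them.

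Of the 4 GTPases 1 could be tested, and it rose. Mx2 belongs to the dynamin-like GTPases that restrict viruses. GENCODE vM21 lists this gene as a polymorphic pseudogene, so its RNA need not give a working protein. It had 2.20, 1.94, 1.77 and 2.01 FPKM in TABS replicates 5 to 8, against 1.57, 1.48, 1.64 and 1.45 FPKM in HA/Mg replicates 5 to 8 (0.23 ± 0.06, adjusted p = 0.0401). The groups did not overlap, but the call ended when any 1 of TABS replicates 5, 6 and 8 and HA/Mg replicates 5, 7 and 8 was left out (highest adjusted p = 0.0981). Mx1, its neighbour on chromosome 16, had 0.408, 0.396, 0.365 and 0.476 FPKM in TABS libraries, against 0.240, 0.397, 0.222 and 0.291 FPKM with HA/Mg. HA/Mg replicate 6 lay among the TABS values of Mx1. Gbp2, a guanylate-binding protein that responds mainly to interferon gamma, had 0.0185, 0.0810, 0.0537 and 0.0375 FPKM in TABS libraries, against 0.0160, 0.0168, 0.0185 and 0 FPKM with HA/Mg, or 4 fragments or fewer in each. Its relative Gbp3 reached at most 0.313 FPKM with TABS and 0.265 FPKM with HA/Mg.

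Taken by role, the 26 effectors other than GTPases included 19 that could be tested, of which 8 rose, 0 fell and 11 did not pass, with a median log2 change of 0.24. Of all genes tested 5.07% rose and 13.1% fell, shares that stand beside the count of each role above.

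The libraries did not contribute evenly. Of the 28 members tested, 11 were highest in TABS replicate 8 and 10 in TABS replicate 6, while 12 were lowest in HA/Mg replicate 6. The 12 called members had median deviations from their own means (log2 scale) of 0.13 to 0.22 in the TABS libraries and -0.18 to -0.13 in the HA/Mg libraries, values that the calls themselves select. The 16 members not called had medians of 0.020, 0.14, -0.058 and 0.12 in TABS replicates 5 to 8, against 0.015, -0.22, -0.0043 and 0.050 in HA/Mg replicates 5 to 8. For these, HA/Mg replicate 6 lay lowest and TABS replicate 7 next. Among them Oasl1, Ifit2, Rtp4 and Ifih1 were all lowest in HA/Mg replicate 6. Without that library 13 of 28 members rose, against 8.57% of genes tested. Without HA/Mg replicate 5 the number was 7, against 1.06% of genes tested, the lowest number of members in the 8 fits that each leave out 1 library. The 7 members called in all 8 of those fits were Irf7, Zbp1, Oas1a, Oas1g, Oas3, Isg15 and Usp18.

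**Figure D4:**
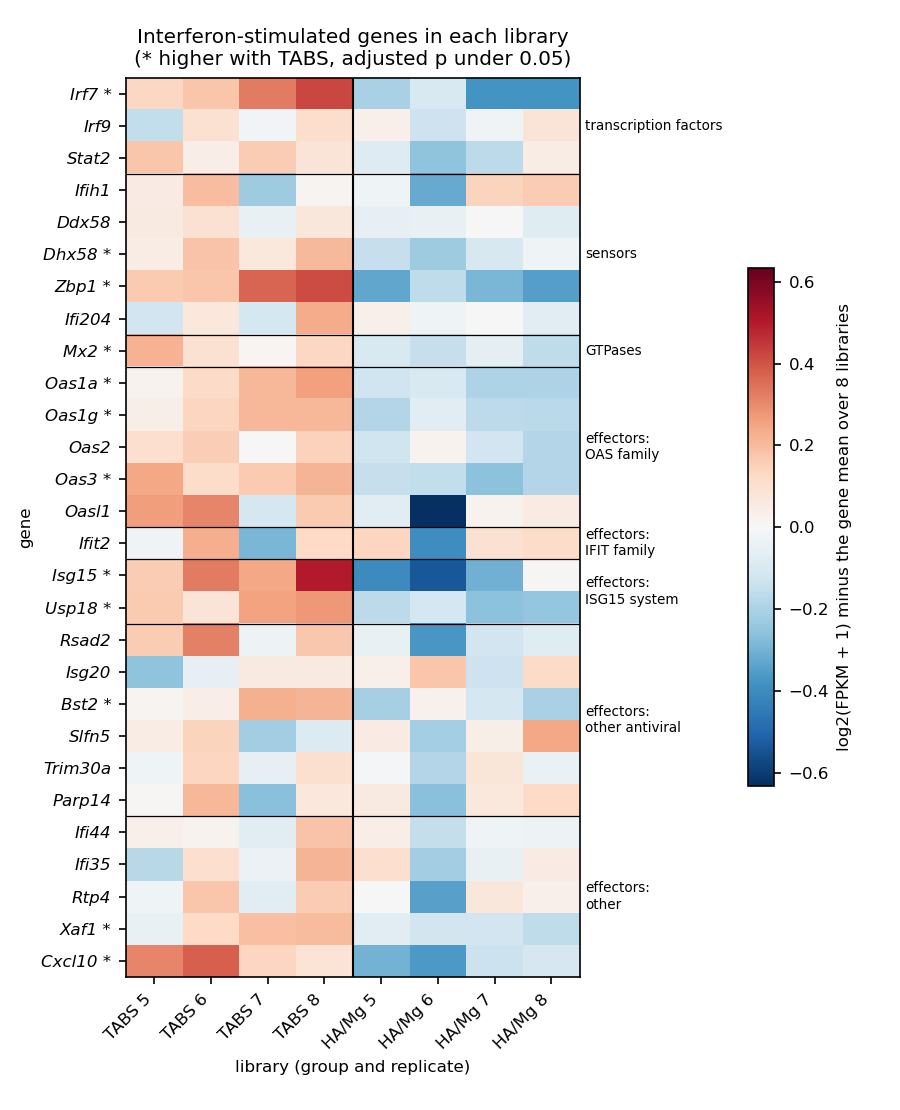
Deviation of log2(FPKM + 1) from each gene's mean over the 8 libraries for the 28 members tested, with TABS libraries left of the line and HA/Mg libraries right of it, and genes grouped by role; stars mark the 12 called higher with TABS. HA/Mg replicate 6 is the lowest library for 12 of the 28 members.

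Across all genes the change followed base composition, and the members are set beside it here. Genes are not independent replicates. Over 10157 of them the log2 change showed a Spearman correlation of 0.54 with the GC content of the longest transcript and -0.31 with its length. Median GC content was 51.8% for the 12 members that rose, 46.4% for the 16 not called and 49.8% for all genes tested. In 5 equal classes of tested genes ordered from low to high GC content, 0 of 5, 2 of 6, 3 of 6, 6 of 8 and 1 of 3 members rose, against 0.689%, 1.58%, 3.30%, 7.19% and 12.5% of all genes in the same classes. After each library's trends on GC content and length were removed, 15 of 28 members rose, against 2.59% of genes tested. Dhx58 and Bst2 lost their calls (adjusted p = 0.0608 and 0.121), and Stat2, Ddx58, Rsad2, Trim30a and Ifi44 gained one (adjusted p from 0.0158 to 0.0447). Counts of members under other scalings moved with those of all 10161 genes, of which 515 rose beside the 12 members in the main fit. With libraries rescaled to equal sums 9 members and 251 genes rose. Dhx58, Mx2 and Xaf1 lost their calls (adjusted p from 0.0600 to 0.0845). With median-of-ratios scaling 15 members and 862 genes rose. With quantile normalization 14 members and 806 genes rose, and Bst2 lost its call (adjusted p = 0.0589).

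**Figure D5:**
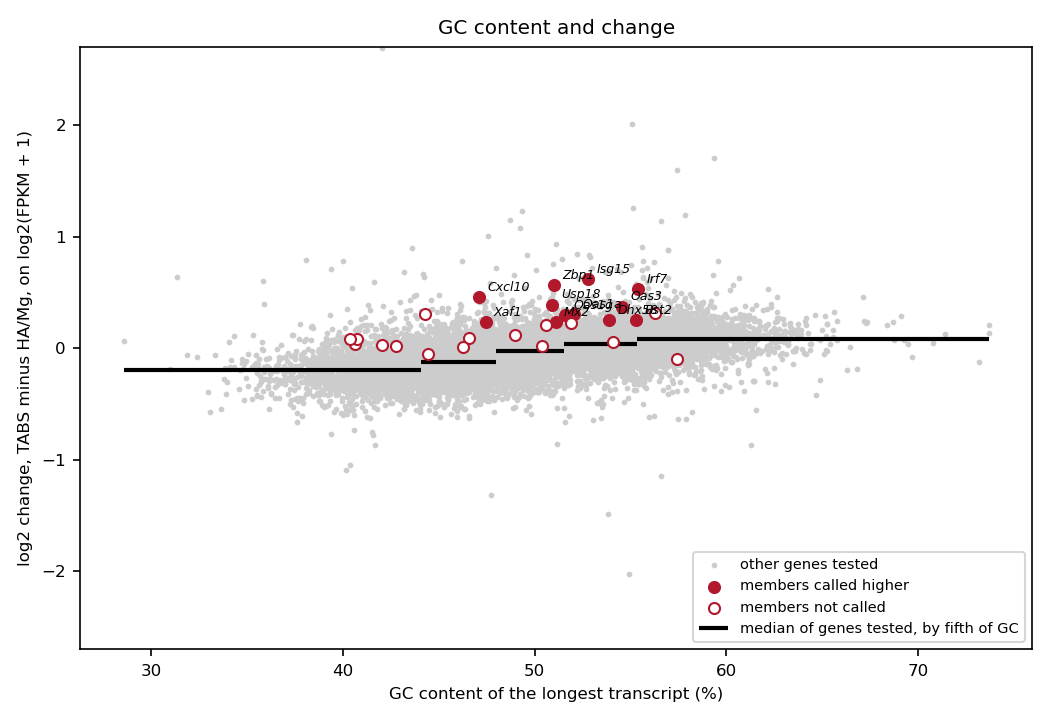
GC content of the longest transcript against log2 change (TABS minus HA/Mg, on log2(FPKM + 1)) for the genes tested in grey, with the 28 members in red (filled where called higher) and the median of all genes in 5 equal classes as black bars. The class medians climb from -0.20 to 0.08. The 12 called members lie above the bar of their class, a position that the call itself selects.

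Of 122 further genes of the pathway listed, 121 were found and 72 tested. Of these 13 rose, against 5.07% of all genes tested, 5 fell, against 13.1%, and 54 did not pass, with a median log2 change of 0.07. This list too was chosen with earlier results of these data known, so the shares are not an independent contrast. The interferon genes themselves were near the floor: 18 of 21 were listed at 0 in all 8 libraries, and Ifnb1, the gene of interferon beta, was above 0 in TABS replicate 6 (0.0681 FPKM) and HA/Mg replicate 7 (0.0609 FPKM) only. The receptor genes Ifnar1 (12.4, 13.3, 11.9 and 10.004 FPKM in TABS libraries, against 10.4, 10.5, 10.3 and 12.4 FPKM with HA/Mg) and Ifnar2 (27.98 to 30.5 against 26.1 to 28.8 FPKM) did not pass (adjusted p = 0.395 and 0.140). Jak1, a kinase of that receptor, fell by 0.21 ± 0.04 (29.7 to 31.6 FPKM in TABS libraries, against 33.6 to 36.8 FPKM with HA/Mg, adjusted p = 0.0170).

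Upstream of interferon, Ticam1, the adaptor of toll-like receptors that leads to interferon beta, rose by 0.49 ± 0.12 (16.9, 15.2, 11.5 and 11.8 FPKM in TABS libraries, against 9.99, 8.60, 9.40 and 9.95 FPKM with HA/Mg, adjusted p = 0.0236). Cgas, the cytosolic DNA sensor, fell by 0.40 ± 0.10 (5.04 to 6.45 FPKM in TABS libraries, against 7.07 to 9.41 FPKM with HA/Mg, adjusted p = 0.0247). Its adaptor Tmem173, or STING, was not called (9.37 to 10.9 FPKM in TABS libraries, against 7.53 to 11.3 FPKM with HA/Mg, adjusted p = 0.196), nor was Irf3 (adjusted p = 0.854). Irf8, a factor of macrophage identity, rose by 0.17 ± 0.04 (adjusted p = 0.0215), and Irf1 had a change of -0.06 ± 0.07 (adjusted p = 0.576). Among inhibitors, Socs3 rose by 0.39 ± 0.10 (24.6 to 29.3 FPKM in TABS libraries, against 17.2 to 23.8 FPKM with HA/Mg, adjusted p = 0.0265), the phosphatase gene Ptpn2 fell by 0.27 ± 0.05 (adjusted p = 0.0157), and Socs1 was too low to test, at 0.0398 to 0.0961 FPKM with TABS and 0.0299 to 0.141 FPKM with HA/Mg.

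Of 44 tested interferon-induced genes outside the 38, 9 rose and 2 fell, against 5.07% and 13.1% of all genes tested. Ccl5, a chemokine for T cells and monocytes, rose by 0.83 ± 0.12 (83.4, 75.0, 78.8 and 68.6 FPKM in TABS libraries, against 38.3, 55.4, 41.8 and 36.4 FPKM with HA/Mg, adjusted p = 0.00859). The secreted glycoprotein gene Lgals3bp rose by 0.47 ± 0.13 (79.7 to 86.7 FPKM in TABS libraries, against 47.3 to 73.3 FPKM with HA/Mg, adjusted p = 0.0343), and Ifitm2, which blocks viral entry, by 0.38 ± 0.09 (adjusted p = 0.0213). Lgals9, a galectin, rose by 0.31 ± 0.09 (adjusted p = 0.0393), with HA/Mg replicate 6 (137.0 FPKM) inside the TABS range of 136 to 164 FPKM. The 2 that fell were Pnpt1, an RNA-degrading enzyme of mitochondria (0.30 ± 0.06 lower, 11.0 to 12.7 FPKM in TABS libraries, against 13.96 to 15.4 FPKM with HA/Mg, adjusted p = 0.0132), and Eif2ak2, the RNA-activated kinase PKR (adjusted p = 0.0477). Of the 18 called pathway genes, Ccl5 and Pnpt1 kept their calls in all 8 fits that leave out 1 library, and the others lost theirs in at least 1 (highest adjusted p from 0.0560 to 0.124). Once GC and length trends were removed, 5 of the 13 that rose lost their calls (Socs3, Oas1b, Lgals3bp, Lgals9 and Mov10), with log2 changes of 0.18 to 0.40 and adjusted p from 0.0684 to 0.153. The 5 that fell lost theirs too, with log2 changes of -0.26 to -0.089 and adjusted p from 0.146 to 0.534.

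The libraries carried macrophage markers throughout. The 10 markers summed to 2765 to 3035 FPKM with TABS and 2300 to 2739 FPKM with HA/Mg. Of these 10, 3 were called higher (Cd68, Csf1r and Cd14) and 0 lower, against 5.07% and 13.1% of all genes tested. Adgre1, Lyz2, Fcgr1 and Spi1 were not called (log2 changes of 0.09 to 0.25). Ptprc, Itgam and Cybb were not called either (-0.12, -0.08 and -0.06). The part of these markers in the results above was not tested. Of 7 osteoclast markers 2 were tested and 1 was higher (Mmp9), and Calcr was at 0 in every library. Siglech and Ly6d, which define plasmacytoid dendritic cells, the main makers of interferon alpha, were at 0 in every library (Bst2, a member, is also on that list), as were Ms4a1 of B cells and Cd3e of T cells. The 7 fibroblast markers summed to at most 0.0767 FPKM with TABS and 0.0793 FPKM with HA/Mg, and the 5 neutrophil markers to at most 0.248 and 0.192 FPKM. Steps between low values put depth at about 19800000 to 23600000 fragments per library, an estimate because only 32.4% to 35.1% of those values were whole within 0.05 fragment. In this whole comparison 515 genes were higher and 1327 lower with TABS, a split that moved to 251 and 1549 with equal sums, 862 and 1033 with median-of-ratios scaling, 806 and 1192 with quantile normalization, and 263 and 384 without GC and length trends.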

How the data were processed

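Per the labels' protocols, RNA was taken with TRIzol (RIN above 7) from RAW264.7 cells after 3 days, made into libraries with the NEBNext Ultra RNA kit and sequenced on a NovaSeq as paired reads of 150 bases. The authors deposited 1 table of FPKM values for 55335 genes in 8 libraries. The submitters' processing notes name fastp, STAR, DESeq2 and GRCm38; the sources used here do not give their versions, the annotation, the use of strand or the tool that made the FPKM. Depth is therefore an estimate, and no count test was run.

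Of the identifiers, 55154 matched GENCODE vM21, the source of symbols, GRCm38 coordinates, lengths and GC content. Genes that reached 1 FPKM in 4 or more libraries were fitted with limma 3.58.1 (R 4.3.3; lmFit, eBayes with trend) on log2(FPKM + 1), TABS minus HA/Mg, two-sided, with Benjamini-Hochberg adjustment over all 10161 genes and a threshold of 0.05. A pseudocount of 1 understates changes of low genes. The procedure was tested on simulated data. Members and lists were chosen with earlier results of these data known. Called members and 10 fixed members are given in every library, others by range, and pathway genes fixed by name or with up to 4 largest changes per direction and subgroup; a few are not reported here. Titles share replicate numbers. Their deviations correlated at 0.011, -0.275, -0.160 and 0.128 for replicates 5 to 8, so a shared number was not taken as a pair. Alternatives covered the pseudocount, filter, scaling, block, length and GC trends (natural splines with 4 df), and each library left out.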

Additional observations from a re-analysis of the deposited data

Results flagged for a closer look

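In 76 groups of 4 libraries (38 members in each scaffold group), 4 held a library far from the other 3 by Dixon's criterion, which chance passes in about 1 of 20 groups. Ifit2 was lowest in HA/Mg replicate 6, at 2.85 FPKM, against 4.40 to 4.54 FPKM in the other HA/Mg libraries. Oas1g was highest of HA/Mg in replicate 6, at 82.1 FPKM. Gbp2 was lowest of HA/Mg in replicate 8, at 0 FPKM, and Ifit3b was highest of TABS in replicate 6, at 0.0383 FPKM; both genes rest on few fragments.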

How the results depend on the processing

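Over all genes 1842 changed, but 647 did once length and GC trends were removed and 808 with no filter on low values, and 414 to 3309 when 1 library was left out. The number of members that rose lay between 9 and 15 under the other pseudocounts, filters and scalings, beside 220 to 862 of all genes. It was 7 to 13 with 1 library left out, beside 107 to 867 of all genes. With the replicate block, 0 genes, 0 members and 0 pathway genes passed in limma (smallest adjusted p = 0.0589), although 2987 genes and 15 members had an unadjusted p under 0.05; the shared numbers are not known to pair libraries. Of other pathway genes 18 changed, against 8 without length and GC trends, 6 with no filter and 3 to 22 with 1 library left out. The median log2 change of members was 0.23, and 0.14 over the 38 members with no filter. Directions of small, uncalled changes turned with equal sums for Ifih1 (-0.017), Ifit2 (-0.017), Irf9 (-0.028) and Parp14 (-0.029), without length and GC trends for Ifi35 (-0.020) and Slfn5 (0.13), and with quantile normalization for Slfn5 (0.018). With 1 library left out, Ifi204 ranged from -0.035 to 0.084, Ifi35 from -0.0090 to 0.12, Ifih1 from -0.081 to 0.10, Ifit2 from -0.10 to 0.12, Irf9 from -0.023 to 0.072, Parp14 from -0.079 to 0.097 and Slfn5 from -0.14 to 0.013. The cause was not tested. Of 492 values of single members under these alternatives, 407 kept direction and call, 46 lost the call, 16 gained one and 23 turned. Depth limits the lowest members most: Gbp2 rested on at most 4 fragments in any library.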
